A study of Mus musculus with 2 samples.

Results

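The genes described here encode the transcription factor NRF2 and its regulators, the enzymes that make and use glutathione, the thioredoxin system and the enzymes that supply NADPH. The list has 36 genes, found by symbol (current or older) among the array's probe names. It was drawn up with earlier results of these data known. All 36 had at least 1 probe well above background on both arrays, out of 12422 named genes measured that way.

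RNA came from macrophages grown out of mouse bone marrow, of genotype c-Maf+/- (1 working copy of Maf) or c-Maf-/- (none). Marrow cells had been grown for 5 days with M-CSF supplied as CMG14-12 culture medium, and all cells of both genotypes then received LPS (lipopolysaccharide, from the outer membrane of bacteria) at 100 ng/ml for 5 h. There was 1 one-colour array per genotype, both on 1 slide, with no untreated and no wild-type array, so the reference group also lacks 1 copy of Maf. The labels do not give the age or sex of the mice, whether marrow was pooled, or which part of Maf was deleted. With 1 sample per genotype no test was possible, and each difference below is between 2 arrays.

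NRF2, encoded by Nfe2l2, is held in the cytoplasm and sent for degradation by KEAP1 until oxidants or electrophiles modify KEAP1. It then enters the nucleus, pairs with a small Maf protein and binds antioxidant response elements (AREs) at genes for cystine import, glutathione synthesis, thioredoxin reduction and NADPH production. The repressor BACH1 competes for the same elements. c-Maf is a large Maf protein that binds Maf recognition elements (MAREs), whose core letters overlap those of the ARE. In macrophages this system buffers the oxidants made after contact with bacteria.

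A signal is the processed spot intensity. Levels are given as log2 of the signal minus the array's 75th percentile, and a difference is c-Maf-/- minus c-Maf+/- on that log2 scale. The error after a difference is 1 SD from the scanner software's error model, which covers the reading of the spots on these arrays and not the spread between cultures or mice. Probes are at positions on mouse build mm9. Levels of different genes are not compared, since each probe binds with its own strength.

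The label check held: the brighter Maf probe read 15101 in c-Maf+/- but 12.6, not well above background, in the c-Maf-/- culture (at least 636-fold lower). Its other probe read 541 and 5.96 (at least 22.8-fold lower, again not well above background). All 10 macrophage markers and all 10 LPS-response genes examined were well above background on both arrays. Of all 12422 genes, 1.42% were higher in c-Maf-/- by 2-fold or more, and 1.74% were lower by as much. At 1.5-fold these shares were 5.37% and 6.52%. The median difference of all genes was -0.02, and 46.2% of genes lay above 0. Of the genes past 2-fold, 45.0% were on the higher side, a share that was 64.9% when the arrays were scaled on spike-in transcripts.

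The genes with the highest values in c-Maf-/- relative to c-Maf+/- were Slc7a11 (cystine importer), Osgin1 (growth inhibitor), Srxn1 (sulfiredoxin), Gclc (catalytic subunit of glutathione synthesis) and Mt1 (metallothionein), and the lowest was Nqo1 (quinone reductase). Among the 36 genes, 2 were at least 2-fold higher, which is 5.56% beside 1.42% of all genes, and 0 were at least 2-fold lower, beside 1.74%. At 1.5-fold, 5 were higher (13.9% beside 5.37%) and 0 lower (beside 6.52%). Their median difference was 0.13, against -0.02 over all genes, and 24 of the 36 lay above 0 (66.7%, beside 46.2% of all genes). The share of all genes above 0 depended on the setting, at 67.5% with spike-in scaling (29 of the 36 above 0) and 58.7% with no filter on dim probes (25 of the 36). The values ran from -0.44 for Nqo1 to 1.40 for Slc7a11. The error model's SD was at most 0.21 for any of them, and for 28 of the 36 the difference was within 2 of its own SDs. These differences lay above 2 SDs for 6 genes (16.7%, beside 9.8% of all genes) and below -2 SDs for 2 (5.56%, beside 12.8%).

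**Figure D1:**
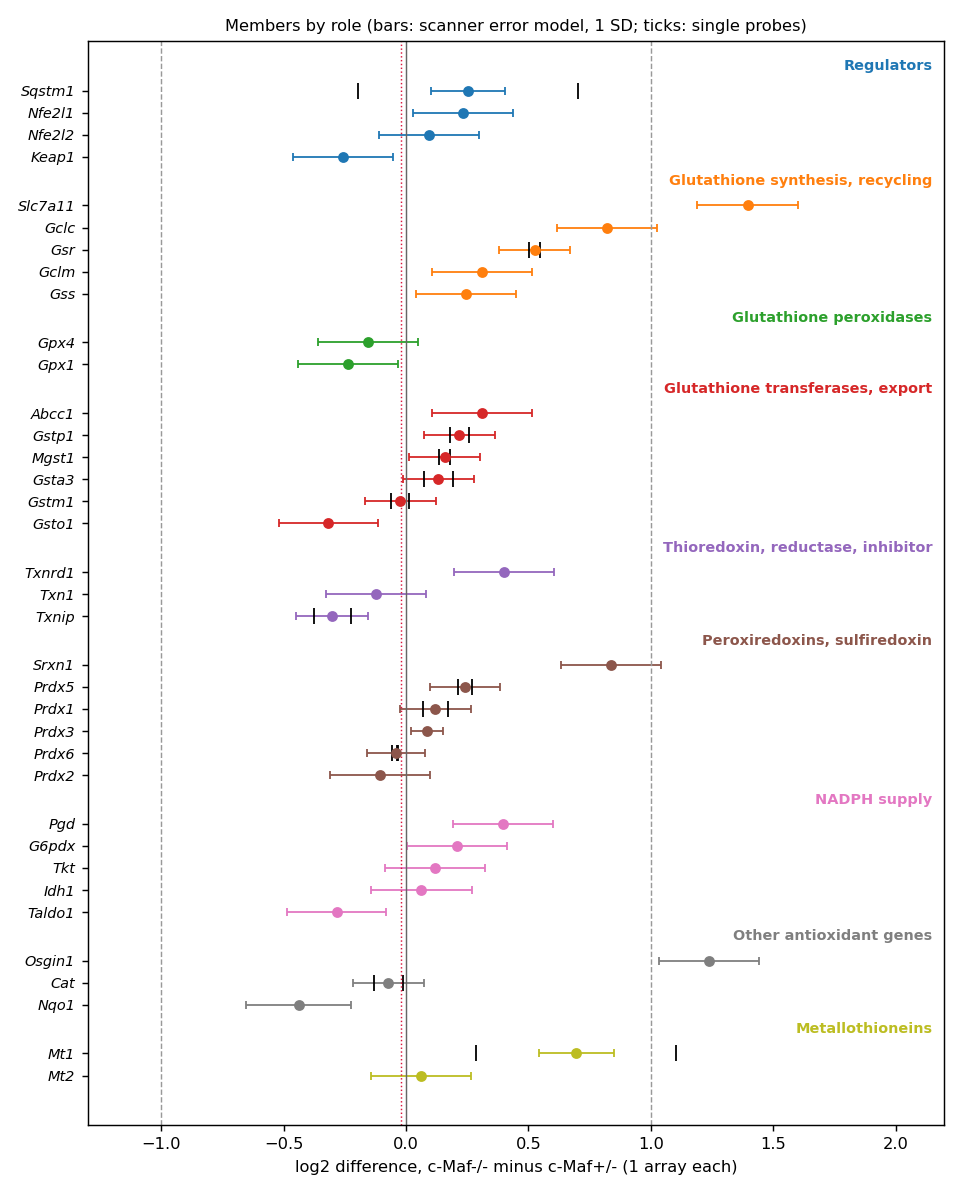
Log2 difference (c-Maf-/- minus c-Maf+/-) of each of the 36 genes, grouped by role, with bars of 1 SD from the scanner error model, black ticks for single probes of genes with several, dashed lines at 2-fold and a dotted line at the median of all genes. Slc7a11 (1.40) and Osgin1 (1.24) lie past 2-fold, followed by Srxn1 (0.84), Gclc (0.82) and Mt1 (0.70), whose probes lie far apart.

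The stretches of promoter below are shown because they hold letters that the ARE and the MARE share. Of the genes printed, only Osgin1 (1.24) and Srxn1 (0.84) differed by 1.5-fold or more. The others ran from 0.06 for Mt2 to 0.40 for Txnrd1. RefSeq promoter windows of 300 bases (250 before and 50 after the annotated start, build GRCm38.p6) were matched for 32 of the 36 genes, and the 4 without an entry were Gsr, Prdx6, Gclc and Abcc1. A strict core, TGANTCAGC, was searched on both strands, and a general ARE core, TGACNNNGC, likewise. A strict match with C at the open base is also a general match. Each stretch has 80 bases, ends before the start site and runs 5′ to 3′ on the gene's strand, with the match in capitals.

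Osgin1 (chr8:119437012-119437091, plus strand, strict core read on the other strand, first base at -99 from the start): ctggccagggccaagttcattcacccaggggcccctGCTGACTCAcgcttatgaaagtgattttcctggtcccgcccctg
Srxn1 (chr2:152105443-152105522, plus strand, strict core at -45): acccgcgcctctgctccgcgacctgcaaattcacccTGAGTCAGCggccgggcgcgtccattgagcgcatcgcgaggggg
Prdx1 (chr4:116685430-116685509, plus strand, strict core read on the other strand, at -133): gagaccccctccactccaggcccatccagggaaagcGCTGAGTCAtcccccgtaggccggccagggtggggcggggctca
Gstp1 (chr19:4037943-4038022, minus strand, strict core at -74): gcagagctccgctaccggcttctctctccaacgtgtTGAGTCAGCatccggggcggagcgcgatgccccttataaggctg
Mt2 (chr8:94172503-94172582, plus strand, strict core at -79): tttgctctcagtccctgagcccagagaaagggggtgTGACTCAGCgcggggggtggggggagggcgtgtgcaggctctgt
Gclm (chr3:122245387-122245466, plus strand, general core read on the other strand, at -134): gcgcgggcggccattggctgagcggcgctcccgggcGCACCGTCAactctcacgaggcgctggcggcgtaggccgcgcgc
Txnrd1 (chr10:82859078-82859157, plus strand, general core read on the other strand, at -92): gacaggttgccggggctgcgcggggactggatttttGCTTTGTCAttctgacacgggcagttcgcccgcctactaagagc
Nfe2l2 (chr2:75704834-75704913, minus strand, general core at -240): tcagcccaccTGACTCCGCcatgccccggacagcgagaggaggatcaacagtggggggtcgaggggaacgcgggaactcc

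The strict core was in the windows of 5 of the 32 genes (15.6%), beside 1.37% of 27025 genes and 1.19% of 32851 windows in the table. The 5 were Osgin1, Srxn1, Gstp1, Prdx1 and Mt2. The general core was in 10 of the 32 (31.2%), beside 14% of all genes and 12.4% of windows. The list was drawn up around NRF2 and its targets, so higher shares than over all genes could come from that choice alone. The differences of the 5 genes with the strict core were above 0 and ranged from 0.06 for Mt2 to 1.24 for Osgin1, with a median of 0.22. The 27 genes without it ranged from -0.44 to 1.40, with a median of 0.09. For the general core, the 10 genes with it ranged from 0.06 to 0.84 with a median of 0.18, and the 22 without it from -0.44 to 1.40 with a median of 0.02. Slc7a11, with the largest difference of the 36, had neither core in its window. A match describes letters in this window and is not a binding site.

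**Figure D2:**
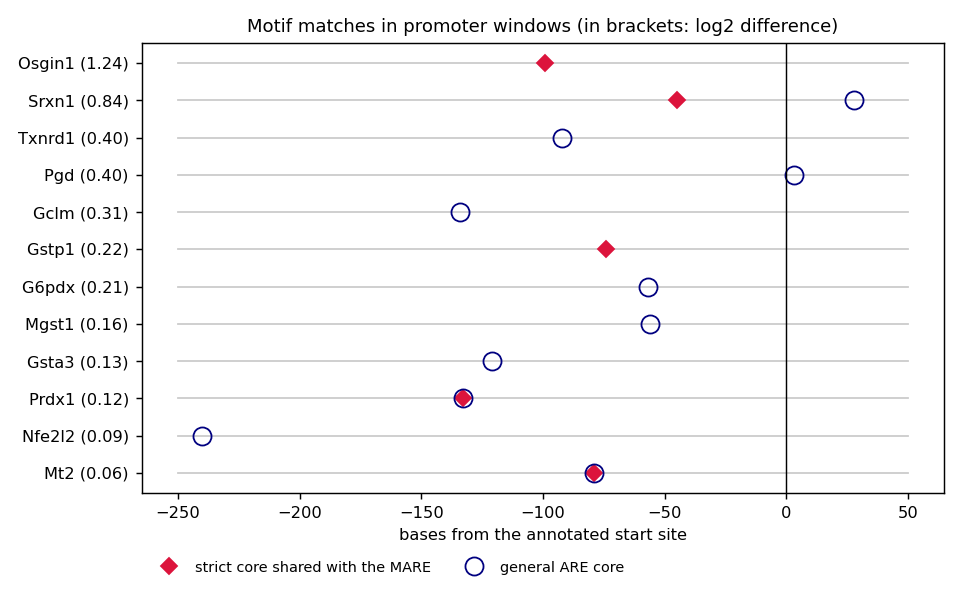
Positions of the strict core shared with the MARE (diamonds) and of the general ARE core (circles) in the promoter windows, in bases from the annotated start, for the 12 genes with a match, ordered by their log2 difference in brackets. Osgin1 at 1.24 and Mt2 at 0.06 both hold the strict core.

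The 4 regulators of the list had values from -0.26 to 0.25, all within 2 SDs. Nfe2l2, which encodes NRF2 itself, went from 13782 in c-Maf+/- to 14976 in c-Maf-/-, a difference of 0.09 (SD 0.20, 1 probe). Nfe2l1, a related factor best known for driving proteasome genes, went from 458 to 548 (0.23, SD 0.21). Keap1 went from 12258 to 10434, lower in c-Maf-/- by a difference of -0.26 (SD 0.20). Sqstm1, which encodes the autophagy receptor p62 that binds KEAP1, averaged 0.25, but its probes disagreed. The brighter one (chromosome 11, 50015985 to 50016044) went from 11024 to 9795, a difference of -0.20, and the dimmer one (50012868 to 50012927) from 125 to 208, a difference of 0.70. With the brightest probe per gene Sqstm1 was thus at -0.20, so it has no settled direction.

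The 5 genes of glutathione synthesis and recycling had values from 0.25 to 1.40, with a median of 0.53, and 3 of them (Slc7a11, Gclc and Gsr) were past 2 SDs. Slc7a11 encodes the cystine importer xCT, which brings in the cysteine that limits glutathione synthesis. It went from 302 in c-Maf+/- to 808 in c-Maf-/-, 2.63-fold higher (difference 1.40, SD 0.21, chromosome 3, 50169700 to 50169759). Only 0.507% of all measured genes had a difference at least as high.

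Gclc and Gclm encode the catalytic and modifier subunits of glutamate-cysteine ligase, the rate-limiting enzyme of glutathione synthesis. Gclc went from 694 to 1249, 1.77-fold higher (0.82, SD 0.20, chromosome 9, 77641296 to 77641355). Gclm went from 911 to 1149, 1.24-fold higher (0.31, SD 0.20). The catalytic subunit gene thus had the larger difference of the pair, by 0.51 (SD 0.29), which is less than 2 SDs. Gss, the synthetase that completes glutathione, went from 540 to 652 (0.25, SD 0.20).

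Gsr encodes glutathione reductase, which uses NADPH to restore glutathione from its oxidised form, and it was read by probes that gave nearly the same difference. One (chromosome 8, 34808488 to 34808547) went from 18580 to 27624 (0.55) and the other (34808413 to 34808472) from 6734 to 9720 (0.50). The mean was 0.53 (SD 0.14 by the error model, 0.03 between the 2 probes), 1.44-fold higher.

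The glutathione peroxidases of the list, Gpx1 and Gpx4, had values below 0 and within 2 SDs, and Gpx3, outside it, was at 0.36 (63.9 to 83.7, SD 0.25). Gpx1, the main cytosolic glutathione peroxidase, went from 75638 to 65402 (-0.24, SD 0.20). Gpx4, which detoxifies lipid peroxides in membranes, went from 15495 to 14155 (-0.16, SD 0.20). Both values lay below every value of the synthesis and recycling genes, the lowest of which was 0.25 for Gss. Between the reductase Gsr and the peroxidase Gpx1 the gap was 0.76 (SD 0.25).

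Of the 6 genes for glutathione transferases and export, 4 were above 0 and 2 below, with a median of 0.15 and none past 1.5-fold. Gsto1, an omega-class transferase, had the value farthest from 0, from 11079 to 9054 (-0.32, SD 0.20). Abcc1, which exports glutathione conjugates, was the highest, from 4777 to 6022 (0.31, SD 0.20). Gstp1 (0.22), Mgst1 (0.16) and Gsta3 (0.13) each had probes above 0. Gstm1 averaged -0.02 over probes placed by the files on chromosomes 3 and 5, and it was above 0 under 4 alternatives (spike-in, quantile and loess scaling and the brightest probe).

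In the thioredoxin system the 2 highest values were those of enzymes that reactivate its other proteins. Srxn1 encodes sulfiredoxin, which repairs over-oxidised peroxiredoxins, and it went from 7939 to 14453, 1.79-fold higher (0.84, SD 0.20, chromosome 2, 151937009 to 151937068). Txnrd1, thioredoxin reductase 1, which passes electrons from NADPH to thioredoxin, went from 20195 to 27146 (0.40, SD 0.20). Thioredoxin itself, Txn1, went from 84576 to 78980 (-0.12, SD 0.20), and this value turned to 0.01 with spike-in scaling. The reductase exceeded its substrate by 0.53 (SD 0.29), less than 2 SDs.

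Txnip, which binds and inhibits thioredoxin and also limits glucose uptake, was lower with both of its probes. They went from 1158 to 907 (-0.38) and from 231 to 201 (-0.22), a mean of -0.30 (SD 0.15).

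Peroxiredoxins other than Prdx6 reduce peroxides with electrons from thioredoxin, and Prdx6 was grouped with them as a family member. The 5 peroxiredoxins of the list spanned -0.11 to 0.24, and Prdx4, a peroxiredoxin outside it, was at -0.25 (9311 to 7971). The mitochondrial and peroxisomal Prdx5 was highest (0.24, SD 0.14, 2 probes), then Prdx1 (0.12) and the mitochondrial Prdx3 (0.09). Prdx3 had 10 spots of 1 probe, whose differences had an SD of 0.04, the best-measured value of the list. Prdx6 (-0.04 over 3 probes) and Prdx2 (-0.11) were below 0, both above 0 with spike-in and quantile scaling. The fourth probe of Prdx6 was not well above background on either array (signals 5.43 and 26.2), and with it included the gene was at 0.53. Srxn1 exceeded its substrate gene Prdx1 by 0.72 (SD 0.25).

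The NADPH-supply genes each differed by less than 2 SDs, from -0.28 to 0.40. G6pdx and Pgd encode the dehydrogenases of the oxidative branch, which make NADPH. G6pdx went from 18272 to 21503 (0.21, SD 0.20) and Pgd from 22710 to 30413 (0.40, SD 0.20). Taldo1 and Tkt encode the transaldolase and transketolase of the non-oxidative branch, which interconverts sugar phosphates. Taldo1 went from 123359 to 103138 (-0.28, SD 0.20) and Tkt from 44199 to 48889 (0.12, SD 0.20). Pgd exceeded Taldo1 by 0.68 (SD 0.29), while G6pdx and Tkt differed by 0.09 (SD 0.29). Idh1, the cytosolic isocitrate dehydrogenase, another NADPH source, went from 326 to 347 (0.06).

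Set side by side, the 13 glutathione genes had a median of 0.22 (9 above 0), the 9 thioredoxin genes 0.09 (5 above 0) and the 4 pentose phosphate genes 0.16 (3 above 0), or 0.12 for all 5 NADPH-supply genes. Their ranges overlapped: -0.32 to 1.40, -0.30 to 0.84 and -0.28 to 0.40. Above 0 lay 69.2% of glutathione genes, 55.6% of thioredoxin genes and 3 of 4 pentose phosphate genes, beside 46.2% of all genes. At 1.5-fold, 2 glutathione genes (15.4%), 1 thioredoxin gene (11.1%) and 0 pentose phosphate genes were higher, beside 5.37% of all genes. In groups this small, counts of 0 to 2 genes carry little weight. The medians thus do not separate these systems beyond the spread of their genes. Within the glutathione genes, the 5 of synthesis and recycling had a median of 0.53, the 6 transferase and export genes 0.15 and the 2 peroxidases -0.20.

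**Figure D3:**
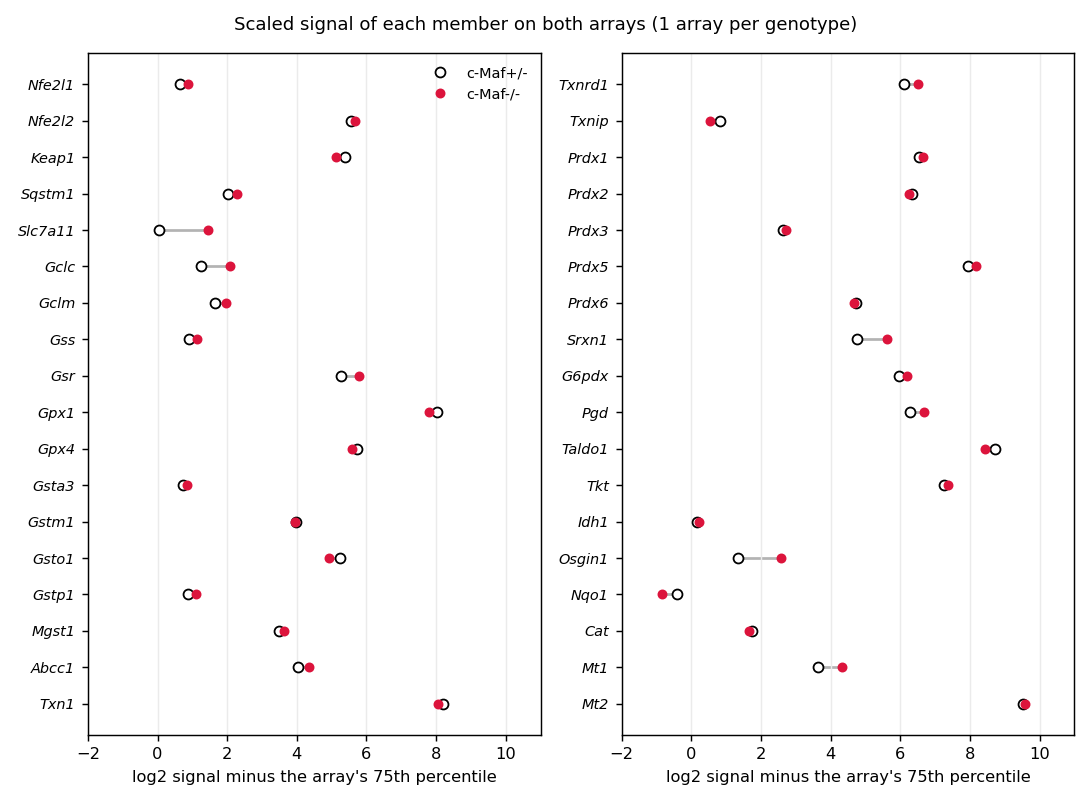
Scaled signal of each of the 36 genes on the c-Maf+/- array (open circles) and the c-Maf-/- array (filled circles), as log2 of the signal minus the array's 75th percentile. The circles lie well apart for Slc7a11, Osgin1, Srxn1, Gclc and Mt1, and nearly coincide for Gstm1, Prdx6 and Mt2; positions along the axis are not comparable between genes.

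The remaining antioxidant genes went both ways. Osgin1, an oxidative stress-induced growth inhibitor and NRF2 target, went from 736 to 1764, 2.36-fold higher (1.24, SD 0.20). Its probe (chromosome 8, 121970077 to 121970136) lies 3.74 Mb from the brighter probe of Maf. Nqo1, a quinone reductase widely used as a marker of NRF2 activity, was the lowest of the 36. It went from 221 to 166 (-0.44, SD 0.21, chromosome 8, 109912440 to 109912499), 1.36-fold lower, at 8.32 Mb from the same Maf probe. Cat, encoding the catalase that breaks down hydrogen peroxide, averaged -0.07 over 2 probes and turned to 0.06 with spike-in scaling.

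The metallothioneins Mt1 and Mt2 encode small cysteine-rich proteins that bind zinc and copper. Mt2 went from 212818 to 226119 (0.06, SD 0.20). Mt1 averaged 0.70, past 1.5-fold, but this mean rested on probes that disagreed in size. The one at chromosome 8, 96704165 to 96704224, went from 142439 to 176949 (0.29), and the one at 96703844 to 96703903, named in the files by a predicted transcript, from 91.5 to 200 (1.10). With the brightest probe Mt1 was at 0.29 and within 1.5-fold, which leaves Slc7a11, Osgin1, Srxn1 and Gclc past it.

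In the order of the differences, Slc7a11 exceeded Osgin1 by 0.16 (SD 0.29) and Srxn1 exceeded Gclc by 0.02 (SD 0.29), so neither neighbour pair was told apart by the error model. The gap from Osgin1 to Srxn1 was 0.40 (SD 0.29). Slc7a11, Osgin1, Srxn1 and Gclc each rested on 1 spot of 1 probe.

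Genes of the same pathway outside the list were examined in 5 lists, in which 84 of 100 genes were measured. Among those not measured, 2 were well above background only in c-Maf-/-: Aox1 (5.06 to 33.8) and Arrdc3 (10.3 to 38.4). Of genes measured by another probe, Btrc and Prdx4 each had 1 probe well above background only in c-Maf+/-. Of the 84, 1 was higher by 2-fold or more and 1 lower by as much (1.19% each, beside 1.42% and 1.74% of all genes), and their median was 0.03. At 1.5-fold, 5 were higher and 3 lower (5.95% and 3.57%, beside 5.37% and 6.52%). Past 2 SDs of the error model, 14 were higher and 7 lower (16.7% and 8.33%, beside 9.8% and 12.8% of all genes).

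The pair past 2-fold encode a small Maf protein and the repressor that competes with NRF2. Maff, the small Maf gene, went from 206 to 453 (1.11, SD 0.21, but 0.91 with normexp background correction). Bach1, that repressor, went from 2757 to 1333 (-1.07, SD 0.20, and -0.94 with spike-in scaling). Mafg, another small Maf, was higher by 0.68 over 4 probes that ranged from 0.64 to 0.72, and Mafk was lower (-0.57, 1 probe). The 9 measured genes of NRF2 turnover and partners had a median of -0.24. Cul3, which encodes the ligase scaffold used by KEAP1, was at -0.28 and Gsk3b at -0.24.

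Among 19 other measured NRF2 targets the median was 0.06, with 11 above 0 (57.9%, beside 46.2% of all genes). At 1.5-fold, 1 was higher (5.26%, close to the 5.37% of all genes). That gene was Hmox1, heme oxygenase 1, whose probes went from 61864 to 109691 (0.80) and from 6128 to 11875 (0.93), a mean of 0.86 (SD 0.14). Me1, the NADPH-forming malic enzyme, was at 0.15 over 3 probes. The ferritin genes Fth1 (-0.04) and Ftl1 (0.03) lay close to 0, as did the measured probe of the aldehyde dehydrogenase gene Aldh3a1 (-0.02). The other probe of Aldh3a1 was well above background only in c-Maf-/- (4.88 to 46.7). Abcc4, another conjugate exporter, was at 0.50.

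The other pentose phosphate and NADPH genes had the highest median of these lists, 0.29 over 17 measured genes. Of the 17, 12 were above 0 (70.6%, beside 46.2% of all genes) and 6 above 2 SDs (35.3%, beside 9.8%). At 1.5-fold, 1 was higher (5.88%, close to the 5.37% of all genes). That gene was Nadk2, the mitochondrial NAD kinase (0.94, SD 0.22, 1 probe). Rpia, ribose-5-phosphate isomerase, was at 0.52, Tigar at 0.44 over 2 probes and H6pd, the glucose-6-phosphate dehydrogenase of the endoplasmic reticulum, at 0.39. Idh2 (-0.11) and the transhydrogenase gene Nnt (-0.08), both mitochondrial, were below 0.

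The other glutathione genes (28 measured, median -0.03) and other thioredoxin genes (11 measured, median 0.02) centred near the median of all genes. Chac1, which degrades glutathione, was at 0.74, whereas Mgst2, a microsomal transferase, was at -0.77 and Lap3, a peptidase that handles the products of glutathione breakdown, at -0.59. Glrx, glutaredoxin 1, was at -0.54. Slc3a2, the partner chain of the importer encoded by Slc7a11, was at -0.04.

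**Figure D4:**
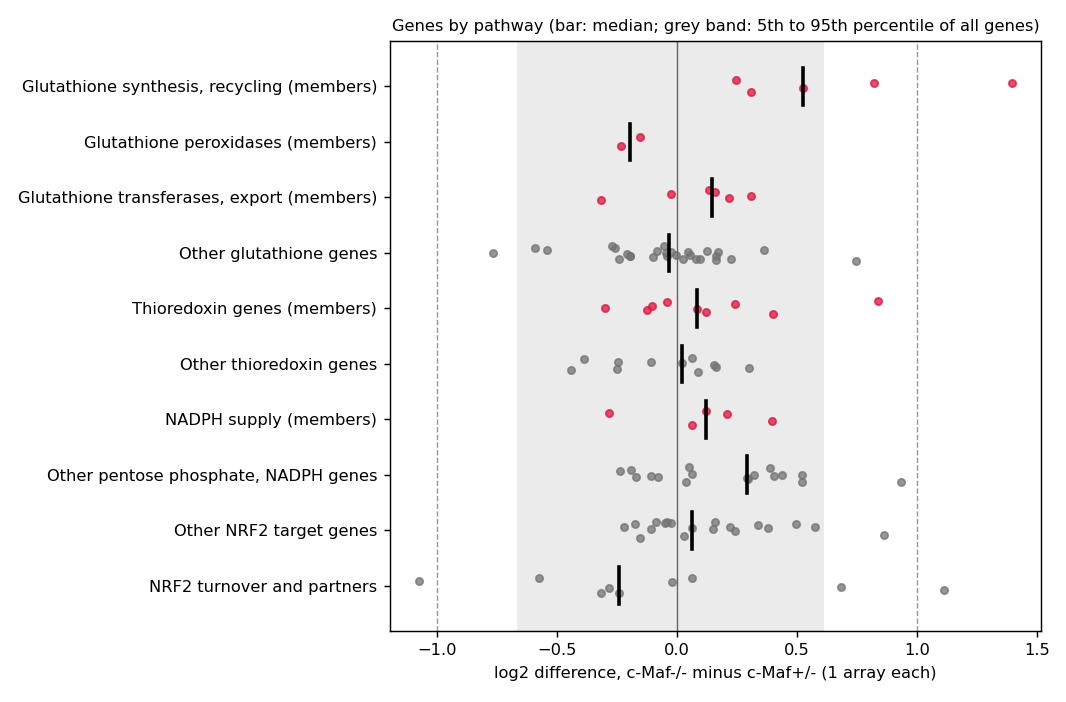
Log2 difference of each measured gene in the groups of the 36 genes (red) and in the other pathway lists (grey), with black bars at the medians, a grey band from the 5th to the 95th percentile of all genes and dashed lines at 2-fold. The glutathione synthesis and recycling genes have a median of 0.53, the other glutathione genes -0.03.

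Markers of other cells that a marrow culture can hold differed between the arrays too. Of 7 measured erythroid markers, 5 were above 0 (median 0.65), and the signals of the 7 added up to 803 (c-Maf+/-) and 988 (c-Maf-/-). Of 12 measured neutrophil markers 10 were below 0 (median -0.63), 5 of them at least 2-fold lower (41.7%, beside 1.74% of all genes), with summed signals of 171548 and 149027. These sums came mostly from Lcn2 (71434 and 93371), S100a9 (68498 and 34671) and S100a8 (24689 and 16299). Lcn2 was higher in c-Maf-/-, whereas S100a9 and S100a8 were lower. Of 8 measured dendritic cell markers 6 were below 0 (median -0.75), 3 of them at least 2-fold lower (37.5%). Their summed signals, 44737 and 46576, came mostly from Siglech (41554 and 43949) and do not follow the other markers. Megakaryocyte and platelet markers, 5 of 6 above 0 (median 0.66), summed to 58880 and 57639, mostly from Pf4 (58067 and 56215). All 5 measured stroma and endothelium markers were below 0 (median -0.40), and Col3a1 and Cdh5 were well above background only in c-Maf+/-. Of 5 measured lymphocyte markers 3 were below 0 (median -0.07). Both measured mast cell and basophil markers were below 0 (median -0.17), and Cpa3 was well above background only in c-Maf+/-. The part of these cells in the values above was not tested. In RNA from a whole culture, fewer cells of a type and less RNA per cell cannot be told apart.

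The values of Slc7a11, Osgin1, Srxn1 and Gclc depended little on the processing, while that of Mt1 depended on it more. Over 7 alternatives each, Slc7a11 ranged from 1.24 to 1.53, Osgin1 from 1.18 to 1.37, Srxn1 from 0.84 to 0.98, Gclc from 0.79 to 0.96 and Nqo1 from -0.44 to -0.30. Each of these genes has 1 probe, so dropping the filter on dim probes or taking the brightest probe could not change its value. Mt1 ranged from 0.29 to 0.83 over 8 alternatives. It was within 1.5-fold with normexp (0.52), with no background subtraction (0.56) and with the brightest probe. Under each of those settings 4 of the 36 genes were at least 1.5-fold higher, against 5 in the main setting and 6 with spike-in or quantile scaling. The 2 genes below -2 SDs, Nqo1 and Txnip, came within 2 SDs under every alternative background or scaling setting. There Nqo1 ran from -0.418 with quantile to -0.302 with spike-in scaling (SD 0.214). Txnip ran from -0.284 with quantile to -0.164 with spike-in scaling (SD 0.147). All alternatives are settings applied to the same spots, so they do not stand in for a replicate.

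**Figure D5:**
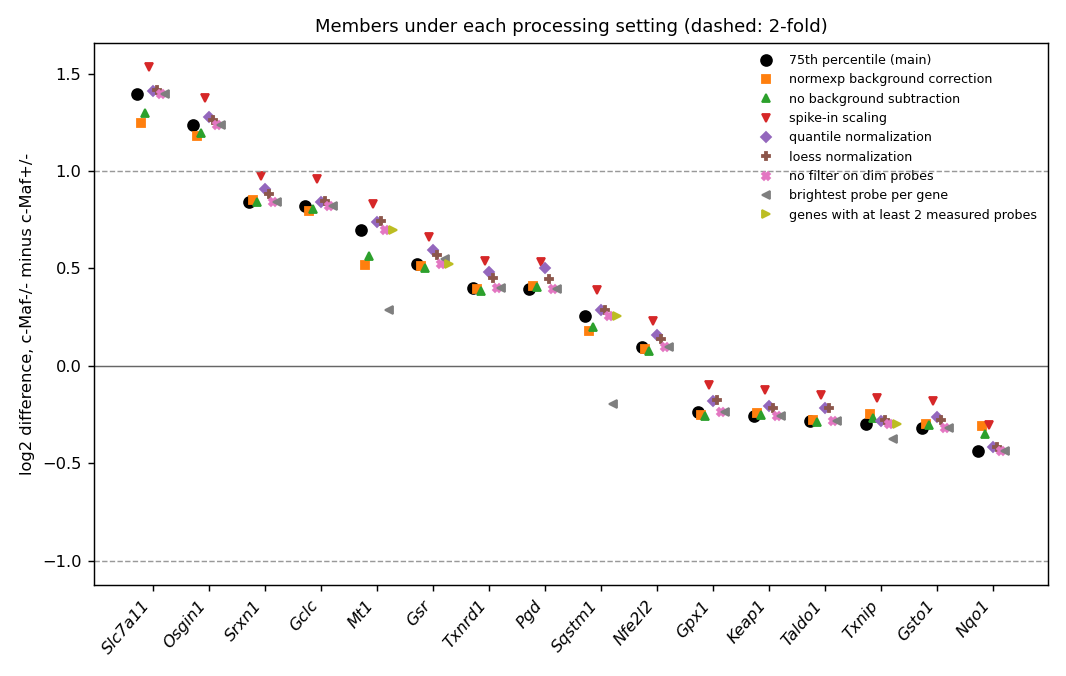
Log2 difference of 16 of the genes under the main setting (black circles) and each alternative that gives a value, with dashed lines at 2-fold. Slc7a11 and Osgin1 stay above 1 throughout, while Mt1 drops to 0.29 and Sqstm1 to -0.20 when only the brightest probe is read.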

How the data were processed

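RNA from 1 c-Maf+/- and 1 c-Maf-/- macrophage culture was labelled with Cy3 (50 ng of total RNA each), per the labels' protocols. The deposited values are linear spot intensities from Agilent Feature Extraction 10.7.3.1 (design 028005), per the file headers: background-subtracted and spatially detrended within each array, with no normalization between arrays. Log2 values, computed here from the deposited intensities, were centred on each array's 75th percentile (signals of 291 and 296). Outlier spots (136 and 149) were dropped, and 0 were saturated. Spots of a probe, then probes well above background on both arrays, were averaged. The error is the deposited error of each intensity, propagated to log2 differences. Between probes of a gene the median SD was 0.09 over 3454 genes; the number of arrays limits the precision.

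Current symbols came from RefSeq (GRCm38.p6) by accession, symbol or older symbol. For 23864 of 55681 probes no match was found, and all-gene counts leave them out. Alternatives used limma 3.58.1 in R 4.3.3. The summary was tested on simulated data. The genes and lists were chosen with earlier results of these data known. Signals are given for genes past 1.5-fold, the regulators, the gene farthest from 0 in each group and, of other pathway genes, those past 2-fold and Hmox1. Further signals, the other pathway genes named and the promoters printed were chosen after their values were seen.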

Additional observations from a re-analysis of the deposited data

How the results depend on the processing

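Background correction by normexp, no background subtraction, spike-in, quantile and loess scaling, no filter on dim probes, the brightest probe per gene and genes with at least 2 measured probes were tried as alternatives. The 2 genes past 2-fold, Slc7a11 and Osgin1, stayed past it under the first 7, and 0 genes were past it with at least 2 probes required, because both have 1 probe. With 1 probe each, their values also could not change without the filter on dim probes or with the brightest probe. No gene was 2-fold lower under any. Spike-in scaling (8 transcripts) moved the median of all genes by 0.14 and every gene with it: medians became 0.26 for all 36 genes, 0.35 for glutathione, 0.22 for thioredoxin and 0.26 for NADPH-supply genes, the same distances from all genes as before. The other medians moved by less than 0.09, the median SD between probes. Without the filter on dim probes the median of all genes was 0.07, and the distance from it shrank from 0.15 to 0.08 for the 36 genes, from 0.24 to 0.15 for glutathione, from 0.11 to 0.05 for thioredoxin and from 0.14 to 0.05 for NADPH-supply genes, which had no value with at least 2 probes. Of the 36 genes, 30 kept their sign under each alternative that gave a value. Cat, Gstm1, Prdx2, Prdx6, Sqstm1 and Txn1 did not. All-gene counts at 2-fold, 177 higher and 216 lower, came to 262 and 142 with spike-ins, to 68 and 109 with normexp, to 82 and 124 on signals with the background left in, 885 and 871 without the filter on dim probes and 17 and 32 with at least 2 probes. No paired analysis was possible because each genotype had 1 sample. Dim probes such as the second ones of Mt1 and Sqstm1 limit those genes.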

Other observations

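Methionine sulfoxide reductases, which repair oxidised methionine with electrons from thioredoxin, did not go 1 way. Msrb1, a selenoprotein like the glutathione peroxidases, was at 0.30 over 2 probes, whereas Msra was at -0.11 and the mitochondrial Msrb2 at -0.39. Of the thioredoxin genes of the mitochondrion, Txn2 was at 0.16 over 2 probes and Txnrd2 at 0.02. One-carbon enzymes, some of which form NADPH, were also mixed, with Mthfd2 at 0.40 and Mthfd1l at 0.29 above 0 and Mthfd1 (-0.19) and Aldh1l1 (-0.24) below. None of these genes was past 1.5-fold, and no explanation was examined.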
